A study of Mus musculus with 15 samples.

Results

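The 48 genes described here encode the machinery that copies DNA in S phase, from the proteins that license origins to the enzymes that supply nucleotides and the regulators of S-phase entry. They were taken by symbol from the deposited gene table of a study of mineral particles in mouse macrophages. All 48 of the listed symbols had a row among its 10653 protein-coding genes, and all 48 passed the filter on low values, as 10616 of the 10653 genes did. The cells were MPI cells, non-transformed macrophages of female C57BL6/J mice that came from fetal liver and renew themselves in medium with the growth factor GM-CSF. A total of 5 groups of 3 RNA-seq libraries each, 15 in all, were profiled at 24 h. The cells of the untreated group received no particles, and their labels also speak of a vehicle control. The other groups received 9 µg/cm2 of riebeckite asbestos, 40 µg/cm2 of riebeckite cleavage fragments, 5 µg/cm2 of tremolite asbestos or 60 µg/cm2 of tremolite cleavage fragments. Riebeckite and tremolite are amphibole minerals, and each was used in its fibrous asbestos form and as broken, non-fibrous fragments, at doses set to equal surface area and therefore of unequal mass.

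Replication starts when the origin recognition complex, Cdc6 and Cdt1 load the hexameric MCM helicase onto DNA before S phase. Cyclin E and the kinases that act with it then help to turn the loaded helicase on, with Cdc45 and the GINS complex as its partners, and DNA polymerases, a sliding clamp and nucleotide-making enzymes do the copying behind it. Many of these genes are known targets of E2F transcription factors, whose activity rises as cells pass from G1 into S phase, so their mRNA is commonly read as a sign of cycling. Macrophages that renew in culture divide under GM-CSF.

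Untreated levels of the 48 genes ran from 2.82 FPKM for Orc1 to 79.7 FPKM for Pcna, with a median of 9.33. FPKM scale fragments by transcript length and by the size of the library, a unit that is relative to the rest of the library and keeps no read depth, so the depth behind each value is unknown. Nothing in the labels ties the libraries of a group to separate cultures. The p-values therefore speak of the spread between libraries, part or all of which may be technical. All 16 macrophage markers looked for had a row, and of the other cell types looked for, none of the hepatocyte, erythroid, lymphocyte, mast cell, neutrophil, fibroblast or endothelial markers had one. Of 4 epithelial markers only Cdh1 had a row, at 52.4 to 53.8 FPKM untreated and 24.3 to 39.6 FPKM over the treated libraries. In a bulk sample fewer cells in S phase and less RNA of these genes per cell cannot be told apart.

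The sequences that control such genes are short, and the promoters of these genes often hold a site of the E2F type. RefSeq promoters (GRCm38.p6, 250 bases before to 50 after a start site) were matched for 40 of the 48 genes, in 49 windows. No entry was matched for Gins1, Gins2, Gins4, Mcm4, Pole, Prim2, Rfc2 or Ccne2. The windows were searched on both strands for TTTCCCGC, TTTGGCGC, TTTCGCGC and TTTGCCGC, which can overlap each other. A match lay in the promoters of 15 of the 40 genes (37.5%), against 413 of 8391 genes of the deposited table with a promoter (4.92%) and 704 of 27025 symbols in all (2.6%). CCAAT, a box common in promoters, lay in 26 of the 40 (65%), against 43.4% of the deposited genes and 41.1% of all symbols. A match is a run of letters and does not show that a factor was bound. The first match of each of the 15 genes is shown, 5′ to 3′ on the gene's strand, with the matching letters in capitals and up to 10 bases on each side:
Cdc6: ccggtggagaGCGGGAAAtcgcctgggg
Cdt1: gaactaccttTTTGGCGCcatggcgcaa
Orc1: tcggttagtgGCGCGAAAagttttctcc
Mcm3: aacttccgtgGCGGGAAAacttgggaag
Mcm5: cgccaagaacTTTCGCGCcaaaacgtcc
Mcm6: ggcgtatgctTTTGGCGCgaaaagtgcg
Mcm7: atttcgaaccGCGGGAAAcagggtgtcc
Gins3: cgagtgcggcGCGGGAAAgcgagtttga
Pola1: tcatcacaggGCGCCAAAtgcactcccg
Pold1: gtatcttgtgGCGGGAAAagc
Pole2: gtcggcggtgGCGCCAAAtcgcgaacat
Rfc3: cgtcgcacgcTTTCGCGCtcgcgggaaa
Lig1: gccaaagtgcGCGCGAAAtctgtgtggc
Uhrf1: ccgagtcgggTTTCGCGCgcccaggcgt
Dnmt1: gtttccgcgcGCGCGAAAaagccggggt
The letters fall into a core of G and C with a run of T or A on 1 side. The promoters of Mcm6, which fell with every particle, and of Dnmt1, which rose with 3 of the 4, both hold matches, and a window of each is shown whole for that contrast, with all matches in capitals. The first is chr1:128359656-128359955 on the minus strand, and the second is chr9:20952574-20952873 on the minus strand:
Mcm6: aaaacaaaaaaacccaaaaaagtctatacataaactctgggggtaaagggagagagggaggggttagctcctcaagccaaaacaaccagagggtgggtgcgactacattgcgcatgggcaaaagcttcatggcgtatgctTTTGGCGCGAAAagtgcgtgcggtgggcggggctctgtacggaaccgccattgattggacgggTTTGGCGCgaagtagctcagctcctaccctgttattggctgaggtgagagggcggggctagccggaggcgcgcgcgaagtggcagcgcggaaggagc
Dnmt1: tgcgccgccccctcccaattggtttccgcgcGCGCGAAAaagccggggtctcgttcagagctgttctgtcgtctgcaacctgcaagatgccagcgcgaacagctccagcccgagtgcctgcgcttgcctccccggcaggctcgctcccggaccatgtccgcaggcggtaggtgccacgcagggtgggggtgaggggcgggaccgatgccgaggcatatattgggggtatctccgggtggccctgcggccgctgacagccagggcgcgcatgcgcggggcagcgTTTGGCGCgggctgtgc
The 3 matches of Mcm6 lie before its start site, and those of Dnmt1 lie on either side of the start site in the window shown. The table holds 3 windows for Dnmt1, and the other 2 have no match, among them chr9:20959839-20960138, the window at the start of the deposited gene. The match windows of Cdc6, Mcm7, Lig1 and Uhrf1 also lay wholly inside the deposited gene rather than across its start. For Lig1 and Uhrf1 the window nearest that start had no match. The 15 genes with a match had median log2 fold changes against untreated cells of -0.18 with riebeckite asbestos, -0.28 with riebeckite fragments, -0.36 with tremolite asbestos and -0.33 with tremolite fragments. For the 25 genes without a match the medians were -0.13, -0.21, -0.27 and -0.24, in the same order. Over all genes tested, 24.3, 23.1, 13.9 and 15% were called lower by limma (adjusted p under 0.05). Genes called lower numbered 9, 10, 12 and 11 of the 15 with a match and 10, 14, 17 and 19 of the 25 without. The difference between these sets was not tested, and the 8 genes without an entry are in neither.

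The study set particle-treated cells against untreated cells, and between 24 and 34 of the 48 replication genes fell, depending on the treatment. With limma on log2(FPKM + 1) and an adjusted p under 0.05 as the rule for a call, 24 of the 48 genes fell with riebeckite asbestos, 29 with riebeckite fragments, 33 with tremolite asbestos and 34 with tremolite fragments. The falls were moderate, with median log2 fold changes over all 48 genes of -0.17, -0.23, -0.30 and -0.28 in that order, where the medians over all genes tested were -0.02, -0.04, -0.03 and -0.02. Of all genes tested, 24.3%, 23.1%, 13.9% and 15% were called lower in these comparisons. Only a few replication genes rose, namely Rfc2 and Dnmt1 with both riebeckite particles and Dnmt1 with tremolite fragments, while 21%, 15.3%, 10% and 12.5% of all genes tested rose. With tremolite asbestos limma called 0 of the 48 higher, and 37 of the 48 had an unadjusted p under 0.05 in either direction. The 4 comparisons share the untreated libraries, so their results are not independent of each other. Where 4 values stand in a row from here on, they belong to riebeckite asbestos, riebeckite fragments, tremolite asbestos and tremolite fragments, in that order, and fold changes are differences of log2(FPKM + 1), in which the added 1 shrinks the change of weakly expressed genes.

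**Figure D1:**
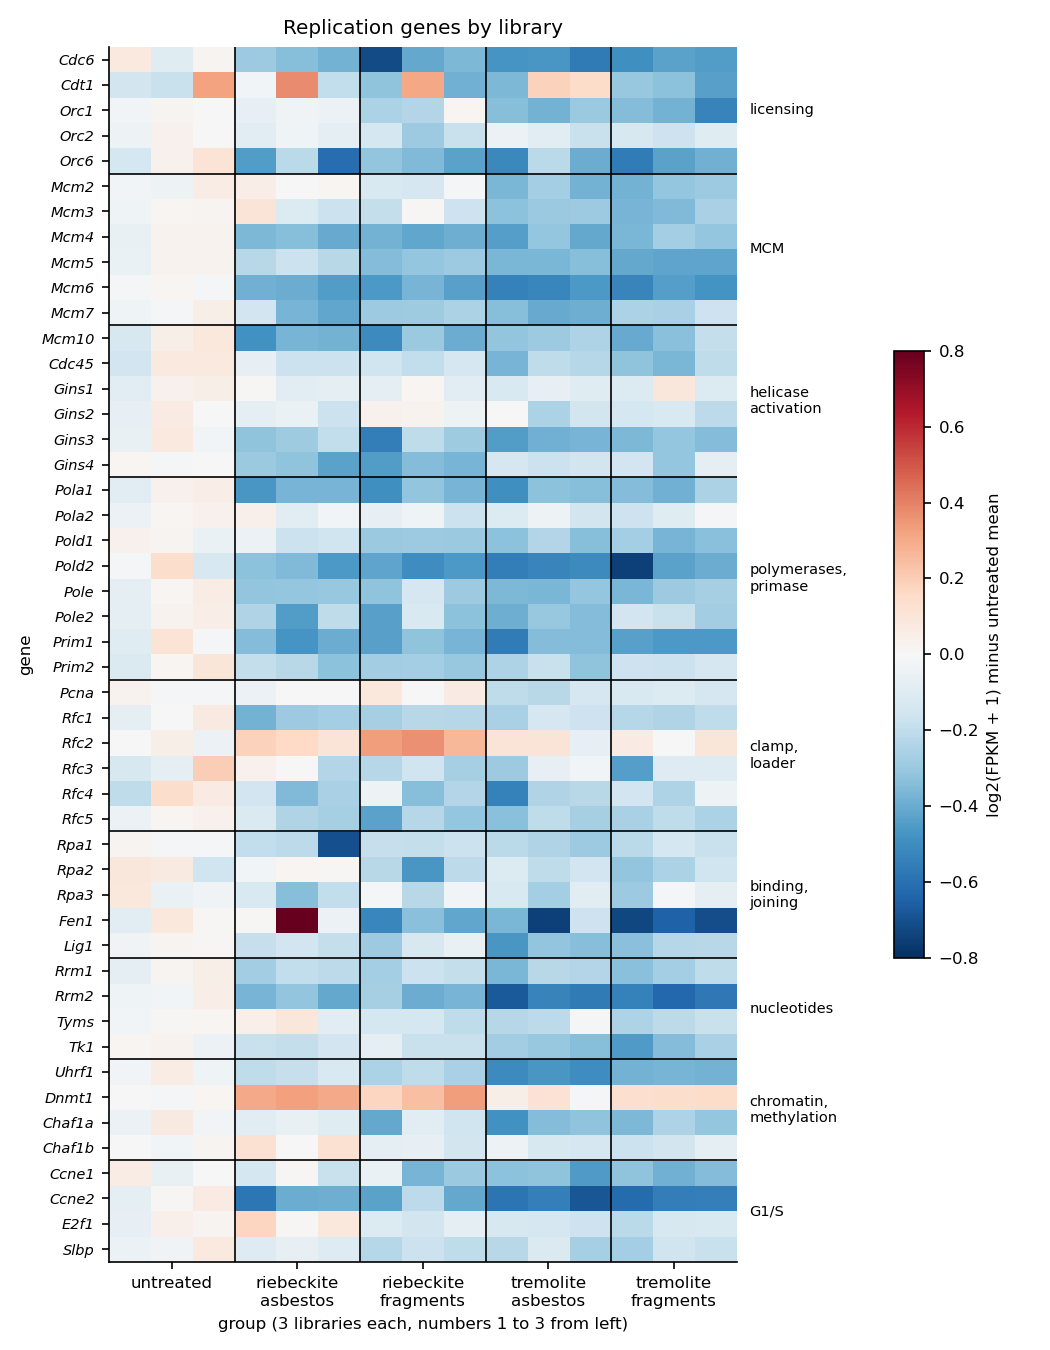
Level of each of the 48 replication genes (rows, ordered by role) in each of the 15 libraries (columns), as log2(FPKM + 1) minus the mean of the 3 untreated libraries, on a colour scale that ends at -0.8 and 0.8. Blue, lower than untreated, fills most of the treated columns, while Dnmt1 and Rfc2 are red in the riebeckite columns and Fen1 is dark red in riebeckite asbestos library 2.

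The fall was visible library by library. The median deviation of the 48 genes from the untreated mean was -0.15, -0.18 and -0.20 in the riebeckite asbestos libraries and -0.26, -0.21 and -0.24 in the riebeckite fragment libraries. It was -0.34, -0.26 and -0.29 with tremolite asbestos and -0.32, -0.27 and -0.24 with tremolite fragments. The untreated libraries themselves stood at -0.05, 0.02 and 0.02, so all 12 treated libraries lay below all 3 untreated ones. Untreated library 1 was the lowest of its group, with 38 of the 48 genes under the untreated mean, against 14 in each of the others. As a share of a library's summed FPKM the 48 genes took 0.253 to 0.269% untreated, 0.226 to 0.240% with riebeckite asbestos, 0.214 to 0.228% with riebeckite fragments, 0.205 to 0.218% with tremolite asbestos and 0.210 to 0.220% with tremolite fragments.

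**Figure D2:**
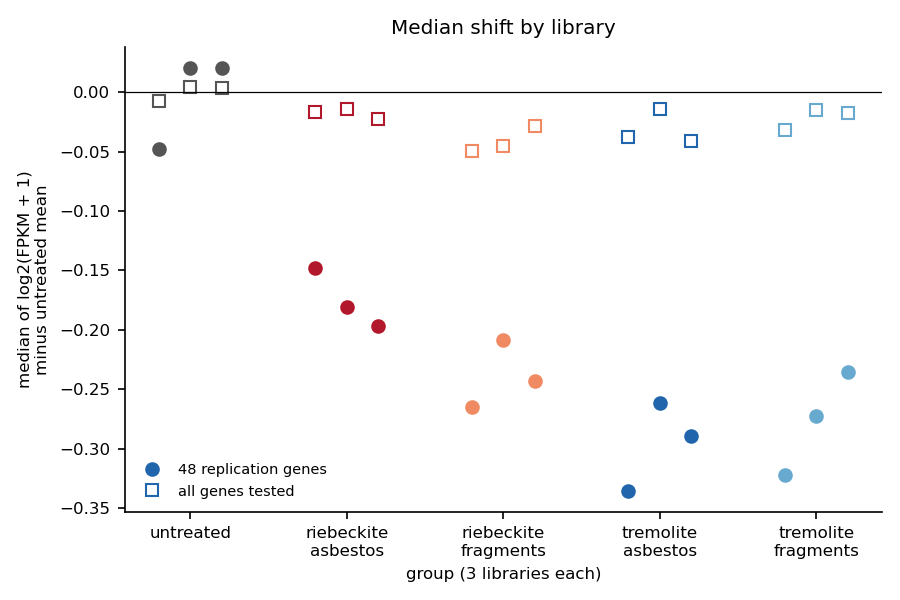
Median over genes of log2(FPKM + 1) minus the untreated mean (vertical axis) for each library (points) by group (horizontal axis). Filled circles are the 48 replication genes and open squares all genes tested. The circles of the 12 treated libraries lie between -0.34 and -0.15, and the squares of all 15 libraries lie near 0.

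FPKM are relative, and other parts of the libraries moved too. Mitochondrial genes took 8.54 to 8.86% of the summed FPKM untreated and 6.08 to 6.90% with riebeckite asbestos, with 7.45 to 8.17%, 7.99 to 8.33% and 8.10 to 8.62% in the other groups. With each library rescaled to its nuclear genes 27, 35, 34 and 35 of the 48 fell, and with TMM, a scaling that balances the bulk of the genes, 24, 25, 31 and 32 fell. Over all genes these scalings moved the balance of calls. On the deposited scale limma called 2575 lower and 2232 higher with riebeckite asbestos, and the nuclear scaling 3151 and 1771. With riebeckite fragments it called 2447 lower and 1626 higher, against 3233 and 1297 with the nuclear scaling and 1933 and 1985 with TMM. With tremolite asbestos it gave 1478 and 1062, and TMM gave 1095 and 1331. Calls lost with TMM were Lig1, Tk1, Chaf1a and Ccne1 with riebeckite fragments (adjusted p = 0.104, 0.142, 0.0644 and 0.061), which quantile normalization ended too, Rfc4, again under both scalings, and E2f1 with tremolite asbestos (0.0684 and 0.088) and Pcna and Rpa2 with tremolite fragments (0.0512 and 0.0511). Rescaling to nuclear genes ended the calls of Rfc2 with riebeckite asbestos (0.10, adjusted p = 0.145) and Dnmt1 with tremolite fragments (0.13, adjusted p = 0.0795).

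Origin licensing came first in the order of events, and 2, 3, 3 and 3 of its 5 genes fell while none rose. The shares over all genes tested were 24.3, 23.1, 13.9 and 15% lower and 21, 15.3, 10 and 12.5% higher. Cdc6, the ATPase that joins the origin recognition complex to load the helicase, stood at 4.31, 3.69 and 4.09 FPKM in untreated libraries 1 to 3, 3.1, 2.97 and 2.87 with riebeckite asbestos, 2.05, 2.77 and 2.91 with riebeckite fragments, 2.63, 2.63 and 2.39 with tremolite asbestos and 2.58, 2.73 and 2.68 with tremolite fragments. All 12 treated libraries lay below the untreated range. Its log2 fold changes were -0.34, -0.50, -0.50 and -0.46 (SE 0.08 each; adjusted p = 0.00452, 0.000325, 0.000609 and 0.00094). Sums of the deposited transcripts of Cdc6 gave log2 differences of 0.10, 0.09 and 0.04 with riebeckite asbestos, tremolite asbestos and tremolite fragments and of -0.43 with riebeckite fragments, none past the threshold.

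Orc6, the smallest subunit of the origin recognition complex, read 9.26, 10.6 and 11.2 FPKM in untreated libraries 1 to 3, 7.3, 8.78 and 6.41 with riebeckite asbestos, 8.11, 7.86 and 7.41 with riebeckite fragments, 6.91, 8.77 and 7.61 with tremolite asbestos and 6.68, 7.42 and 7.67 with tremolite fragments. Every treated library was below the lowest untreated one, with log2 fold changes of -0.43, -0.37, -0.38 and -0.46 (SE 0.10 each; adjusted p = 0.00436, 0.0125, 0.017 and 0.00452). Orc1, the ATPase subunit of that complex whose level varies over the cell cycle, fell with both tremolite particles and did not pass with the riebeckite particles, with log2 fold changes of -0.05, -0.16, -0.34 and -0.42 (SE 0.07 each; adjusted p = 0.616, 0.0917, 0.00332 and 0.000536). Orc2 passed the test only with riebeckite fragments (-0.20). Cdt1, the licensing factor that brings the helicase to the origin, was scattered, at 5.76, 5.63 and 8.37 FPKM in untreated libraries 1 to 3, 6.38, 8.72 and 5.52 with riebeckite asbestos, 4.99, 8.28 and 4.74 with riebeckite fragments, 4.83, 7.51 and 7.3 with tremolite asbestos and 5.07, 4.98 and 4.55 with tremolite fragments. In 3 of the 5 groups 1 library stood well above its partners, every group overlapped the untreated libraries except tremolite fragments, which overlapped the riebeckite fragment and tremolite asbestos libraries, and no comparison passed the test, with log2 fold changes of 0.05, -0.13, -0.01 and -0.35 (SE 0.21 each; adjusted p = 0.865, 0.657, 0.982 and 0.243). Cdt1 shares 5540 bases on the same strand with the annotated gene Gm20388. The Orc6 call was lost with riebeckite fragments without untreated library 3 (adjusted p = 0.056) and with tremolite asbestos without untreated library 2 or 3 or tremolite asbestos library 1 (adjusted p = 0.0553, 0.0718 and 0.0738). Transcript sums ended the Orc6 call in every comparison with untreated cells.

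The MCM helicase, the ring that unwinds DNA at the fork, had 4, 4, 6 and 6 of its 6 subunits lower and none higher. Over all genes tested 24.3, 23.1, 13.9 and 15% were lower and 21, 15.3, 10 and 12.5% higher. Mcm4, Mcm5, Mcm6 and Mcm7 fell with all particles. Mcm2 and Mcm3 fell with both tremolite particles and did not pass the test with either riebeckite particle. Mcm6 (chromosome 1, 128331590 to 128359664, minus strand) read 26.9, 27.5 and 27 FPKM in untreated libraries 1 to 3, 20.5, 20.3 and 19.6 with riebeckite asbestos, 19.5, 20.7 and 19.8 with riebeckite fragments, 18.4, 18.6 and 19.5 with tremolite asbestos and 18.5, 19.7 and 19.2 with tremolite fragments. No treated library reached the untreated range, and its log2 fold changes were -0.41, -0.42, -0.51 and -0.48 (SE 0.04 each; adjusted p = 8.00e-07, 8.45e-07, 4.25e-07 and 4.24e-07). Mcm4, its partner in the ring, read 34.9, 37 and 37.1 FPKM in untreated libraries 1 to 3, 28, 28.5 and 27.3 with riebeckite asbestos, 27.7, 27 and 27.5 with riebeckite fragments, 26.6, 29.1 and 27.1 with tremolite asbestos and 28, 29.9 and 29.1 with tremolite fragments. It too was below the untreated libraries in all 12 treated ones, with log2 fold changes of -0.37, -0.40, -0.39 and -0.32 (SE 0.04 each; adjusted p = 5.64e-06, 3.85e-06, 1.18e-05 and 4.58e-05).

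Mcm5, the subunit at the gate where the ring opens, read 24.4, 25.8 and 25.8 FPKM in untreated libraries 1 to 3, 21.5, 22.4 and 21.5 with riebeckite asbestos, 19.6, 20.2 and 20.5 with riebeckite fragments, 19.4, 19.4 and 19.7 with tremolite asbestos and 18.8, 18.7 and 18.6 with tremolite fragments. Its libraries were stepped without overlap from untreated through riebeckite asbestos to the other groups, with log2 fold changes of -0.21, -0.32, -0.36 and -0.42 (SE 0.03 each; adjusted p = 0.000132, 3.70e-06, 2.99e-06 and 4.76e-07). Mcm7 read 21, 21.5 and 22.3 FPKM in untreated libraries 1 to 3, 19.3, 16.4 and 15.9 with riebeckite asbestos, 17.4, 17.6 and 17.9 with riebeckite fragments, 16.9, 16.1 and 16.2 with tremolite asbestos and 18, 17.9 and 19.1 with tremolite fragments. Riebeckite asbestos library 1 stood nearest to the untreated libraries, but no treated library reached them, and the log2 fold changes were -0.32, -0.28, -0.38 and -0.23 (SE 0.06 each; adjusted p = 0.000597, 0.00186, 0.000362 and 0.00975). The Mcm7 gene overlaps Cops6 and Ap4m1 on the opposite strand.

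Mcm2, the other subunit at that gate, read 11.2, 11 and 11.9 FPKM in untreated libraries 1 to 3, 11.8, 11.3 and 11.5 with riebeckite asbestos, 10.4, 10.3 and 11.3 with riebeckite fragments, 8.59, 9.24 and 8.49 with tremolite asbestos and 8.5, 8.96 and 9.09 with tremolite fragments. Both riebeckite groups overlapped the untreated libraries, and both tremolite groups lay below every other library. Accordingly its log2 fold changes were 0.02, -0.09, -0.34 and -0.33 (SE 0.05 each; adjusted p = 0.755, 0.168, 0.000172 and 0.000175). Mcm3 read 21, 21.8 and 21.9 FPKM in untreated libraries 1 to 3, 23.2, 20.0 and 19.1 with riebeckite asbestos, 18.8, 21.7 and 19.1 with riebeckite fragments, 17, 17.4 and 17.5 with tremolite asbestos and 16.4, 16.7 and 17.9 with tremolite fragments. Its log2 fold changes were -0.06, -0.12, -0.30 and -0.33 (SE 0.07 each; adjusted p = 0.512, 0.194, 0.00500 and 0.00241). Tested directly, the difference between minerals passed for Mcm2 in both habits. For Mcm3 it passed between the asbestos forms (0.24, adjusted p = 0.0163), though not without riebeckite asbestos library 1 (0.16, adjusted p = 0.0668), and it did not pass between the fragments (0.21, adjusted p = 0.0594).

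**Figure D3:**
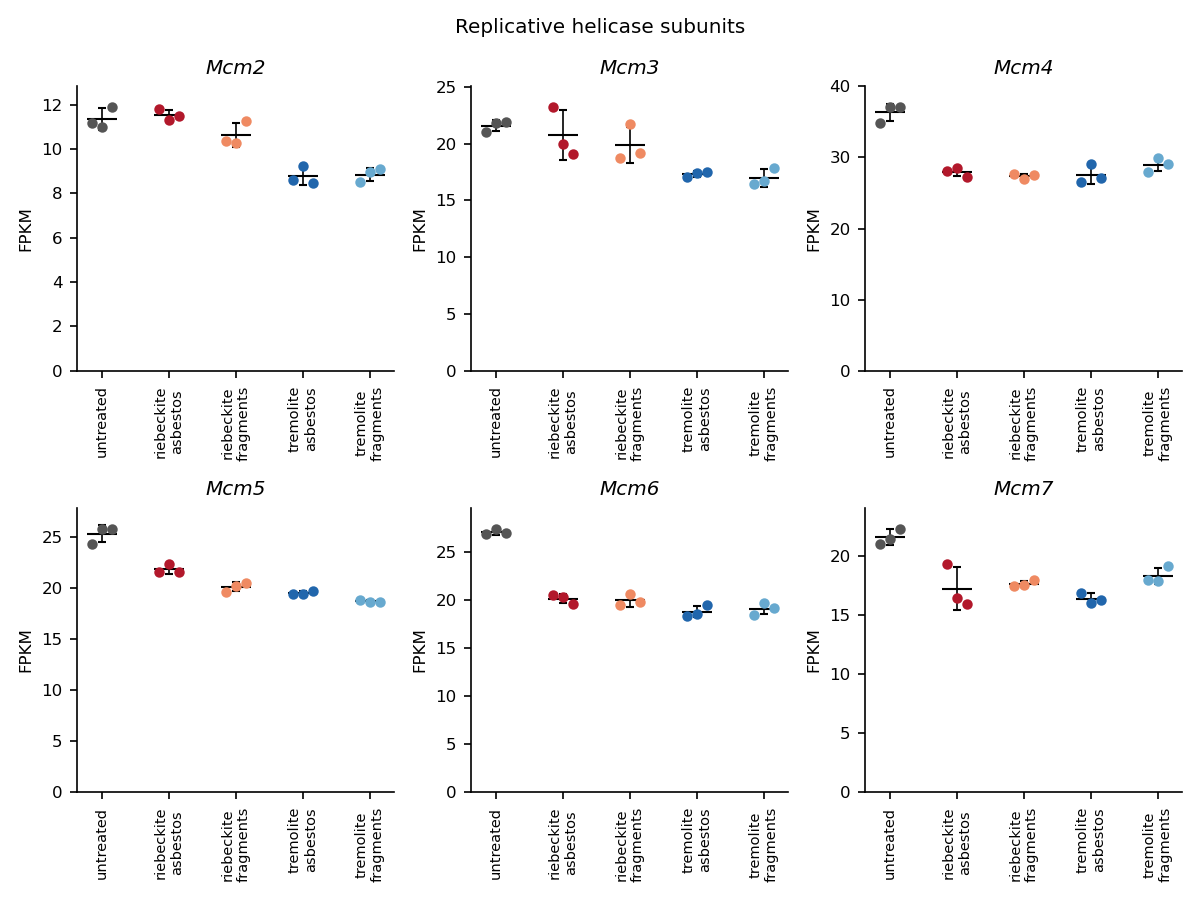
FPKM (vertical axes, from 0) of the 6 helicase subunits in each library (points) by group, with the mean as a bar and the SD as whiskers (n = 3). Mcm4 to Mcm7 are lower in all 4 treated groups. Mcm2 and Mcm3 overlap the untreated libraries with both riebeckite particles and lie below them with both tremolite particles. Several Mcm3 libraries of both riebeckite groups are also lower than the untreated ones.

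Helicase activation was more mixed, with 3, 3, 3 and 4 of 6 genes lower and none higher. The background shares were 24.3, 23.1, 13.9 and 15% lower and 21, 15.3, 10 and 12.5% higher over all genes tested. Mcm10, which helps the assembled helicase start, read 5.02, 5.8 and 5.98 FPKM in untreated libraries 1 to 3, 3.71, 4.1 and 4.07 with riebeckite asbestos, 3.63, 4.37 and 3.99 with riebeckite fragments, 4.3, 4.38 and 4.55 with tremolite asbestos and 3.98, 4.22 and 4.78 with tremolite fragments. All treated libraries were below the untreated ones, and the log2 fold changes were -0.41, -0.40, -0.28 and -0.31 (SE 0.07 each; adjusted p = 0.000551, 0.000821, 0.0136 and 0.00704). Cdc45, the helicase cofactor, fell with tremolite asbestos (-0.27) and tremolite fragments (-0.30), and stood at -0.13 and -0.16 with the riebeckite particles. The 4 subunits of the GINS complex were not called alike. Gins3 fell in all 4 comparisons (-0.27, -0.35, -0.40 and -0.34). Gins4 fell with riebeckite asbestos (-0.35), riebeckite fragments (-0.39) and tremolite fragments (-0.18). Gins1 and Gins2 passed in none, with log2 fold changes of -0.05, -0.05, -0.09 and -0.04 (SE 0.06 each; adjusted p = 0.49, 0.552, 0.271 and 0.641) for Gins1 and between -0.16 and 0.01 for Gins2. Calls lost without 1 library were Gins3 with riebeckite asbestos (untreated library 2, adjusted p = 0.0552), Mcm10 with tremolite asbestos (untreated library 2 or 3, 0.0529 and 0.0599) and Cdc45 with tremolite asbestos (untreated library 2 or 3 or tremolite asbestos library 1, 0.0528, 0.0519 and 0.0526). Gins4 with tremolite fragments was lost without untreated library 1 or 3 (adjusted p = 0.0607 and 0.0517) or tremolite fragment library 2, where it stood at -0.12 (adjusted p = 0.0886).

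Polymerases and primase were mostly lower, with 6, 7, 7 and 5 of 8 genes lower and none higher. Over all genes tested 24.3, 23.1, 13.9 and 15% were lower and 21, 15.3, 10 and 12.5% higher. Pold2, the accessory subunit of the lagging-strand polymerase delta, read 8.76, 9.84 and 7.99 FPKM in untreated libraries 1 to 3, 6.85, 6.71 and 6.17 with riebeckite asbestos, 6.34, 5.98 and 6.15 with riebeckite fragments, 5.71, 5.82 and 5.9 with tremolite asbestos and 4.87, 6.3 and 6.46 with tremolite fragments. It was below the untreated range in every treated library, and its log2 fold changes were -0.38, -0.46, -0.53 and -0.52 (SE 0.09 each; adjusted p = 0.00294, 0.00088, 0.000593 and 0.000486). Prim1, the catalytic primase subunit, fell with all particles (-0.40, -0.38, -0.42 and -0.45), and so did Pola1, the catalytic subunit of the priming polymerase alpha (-0.40, -0.39, -0.39 and -0.33). Pole, the catalytic subunit of the leading-strand polymerase epsilon, also fell in all 4 (-0.31, -0.25, -0.34 and -0.31). Pold1, the catalytic subunit of polymerase delta, fell with riebeckite fragments (-0.29), tremolite asbestos (-0.30) and tremolite fragments (-0.33). Prim2, the large primase subunit, and Pole2, the partner subunit of Pole, fell with riebeckite asbestos (-0.25 and -0.30), riebeckite fragments (-0.28 and -0.29) and tremolite asbestos (-0.25 and -0.35). Pola2, the accessory subunit of polymerase alpha, passed in none and lay between -0.10 and -0.02. The Pole2 call with riebeckite fragments was lost without riebeckite fragment library 1 (adjusted p = 0.0602). Transcript sums ended every call of Prim1 and Pold1 against untreated cells.

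The clamp and its loader were mixed, with 2, 2, 4 and 3 of 6 genes lower and 1, 1, 0 and 0 higher. With each riebeckite particle 33.3% of them were lower, against 24.3 and 23.1% of all genes tested. Pcna, the sliding clamp that tethers polymerases to DNA (chromosome 2, 132249162 to 132253314, minus strand), read 81.4, 78.6 and 79 FPKM in untreated libraries 1 to 3, 77.2, 79.6 and 79.8 with riebeckite asbestos, 84.5, 80.0 and 83.4 with riebeckite fragments, 69.2, 68.1 and 72.6 with tremolite asbestos and 73, 73.7 and 72.5 with tremolite fragments. The riebeckite libraries overlapped the untreated ones and the tremolite libraries lay below them. Its log2 fold changes were -0.01, 0.05, -0.19 and -0.12 (SE 0.03 each; adjusted p = 0.74, 0.208, 0.00073 and 0.00912). With TMM the fall with tremolite fragments was lost (-0.10, adjusted p = 0.0512). The loader is built of Rfc1 to Rfc5. Rfc1, its large subunit, fell with all particles (-0.31, -0.24, -0.19 and -0.22), as did Rfc5 (-0.21, -0.32, -0.27 and -0.24). Rfc2 (chromosome 5, 134581366 to 134601805, plus strand) went the other way, at 6.95, 7.21 and 6.69 FPKM in untreated libraries 1 to 3, 8.02, 7.88 and 7.54 with riebeckite asbestos, 9.00, 9.25 and 8.56 with riebeckite fragments, 7.53, 7.54 and 6.6 with tremolite asbestos and 7.3, 6.95 and 7.48 with tremolite fragments. Its riebeckite libraries were all above the untreated range, its tremolite libraries overlapped it, and its log2 fold changes were 0.15, 0.32, 0.05 and 0.05 (SE 0.05 each; adjusted p = 0.034, 0.000311, 0.566 and 0.507). Rfc4 fell with tremolite asbestos (-0.33), and Rfc3 passed in no comparison (-0.07, -0.22, -0.13 and -0.22). The rise of Rfc2 with riebeckite asbestos was lost after rescaling to nuclear genes and without untreated library 1 or 3 or riebeckite asbestos library 1 or 2 (adjusted p = 0.0686, 0.115, 0.103 and 0.0805), and the fall of Rfc4 was lost without untreated library 2 or 3 or tremolite asbestos library 1 (adjusted p = 0.156, 0.126 and 0.17).

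Single-strand binding and the joining of Okazaki fragments, the short pieces of the lagging strand, had 2, 2, 1 and 3 of 5 genes lower and none higher. Of all genes tested 24.3, 23.1, 13.9 and 15% were lower. Lig1, the ligase that seals the pieces, fell in all 4 comparisons (-0.18, -0.16, -0.37 and -0.26). Replication protein A coats exposed strands and has 3 subunits. Rpa1, its large subunit, fell with riebeckite asbestos (-0.37), where library 3 was lowest at 11.5 FPKM against 16.8 and 16.6 in its partners. Without that library the fall of Rpa1 was -0.20 (adjusted p = 0.000619). The Rpa1 call was lost when only the groups compared were fitted. Rpa2 fell with riebeckite fragments (-0.30) and tremolite fragments (-0.24), and Rpa3 passed in none (-0.22, -0.09, -0.16 and -0.12).

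Fen1, the flap nuclease that trims the pieces before they are sealed (chromosome 19, 10199132 to 10204169, minus strand), read 14.9, 16.9 and 16 FPKM in untreated libraries 1 to 3, 16.1, 31.1 and 15.4 with riebeckite asbestos, 10.8, 12.4 and 11.7 with riebeckite fragments, 12.1, 9.09 and 14.1 with tremolite asbestos and 9.23, 9.83 and 9.37 with tremolite fragments. Riebeckite asbestos library 2 stood above all other libraries, and the libraries of the other 3 treatments lay below the untreated range. Log2 fold changes were 0.30, -0.42, -0.43 and -0.69 (SE 0.21 each; adjusted p = 0.268, 0.126, 0.158 and 0.0237). That SE is shared by all 4 comparisons and takes in the spread of riebeckite asbestos library 2, which only the first of them contains. In that high library a pair of its 4 deposited transcripts stood at 14.4 and 5.79 FPKM, while in the other 14 libraries the same transcripts reached at most 0.586 and 0.140 FPKM. Fen1 overlaps Tmem258 on the opposite strand by 156 bases, and the part of that overlap in these values was not tested. With tremolite fragments the Fen1 call was lost without untreated library 2 or 3 or any tremolite fragment library (adjusted p = 0.0721, 0.060, 0.0645, 0.051 and 0.0585), and the Rpa2 call without untreated library 1 or 2 or tremolite fragment library 1 or 2 (0.121, 0.116, 0.119 and 0.0833). The Lig1 calls with the riebeckite particles were lost without 4 of 6 and 5 of 6 libraries (adjusted p up to 0.0717 with asbestos and 0.198 with fragments, the latter without riebeckite fragment library 1 at -0.09), and transcript sums of Lig1 gave 0.09 and 0.16 there, which did not pass.

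Nucleotide supply had 3, 3, 3 and 4 of 4 genes lower and none higher. The shares over all genes tested were 24.3, 23.1, 13.9 and 15% lower and 21, 15.3, 10 and 12.5% higher. Rrm2, the small subunit of ribonucleotide reductase, which makes deoxyribonucleotides (chromosome 12, 24708241 to 24714146, plus strand), read 19.2, 19.4 and 20.5 FPKM in untreated libraries 1 to 3, 15, 15.6 and 14.6 with riebeckite asbestos, 16.2, 14.7 and 15 with riebeckite fragments, 12, 13.3 and 13 with tremolite asbestos and 13.3, 12.4 and 12.9 with tremolite fragments. All treated libraries were below the untreated ones, with the tremolite libraries lowest. Its log2 fold changes were -0.37, -0.35, -0.59 and -0.58 (SE 0.05 each; adjusted p = 4.31e-05, 9.20e-05, 1.82e-06 and 1.41e-06). Rrm1, the large subunit, fell less (-0.23, -0.21, -0.27 and -0.27). Tk1, the thymidine salvage kinase, also fell in all 4 comparisons (-0.17, -0.14, -0.31 and -0.35). Its gene overlaps Gm20708 and Afmid on the opposite strand. Tyms, the thymidylate synthase, read 3.65, 3.74 and 3.76 FPKM in untreated libraries 1 to 3, 3.85, 4.03 and 3.43 with riebeckite asbestos, 3.28, 3.27 and 3.1 with riebeckite fragments, 3.02, 3.09 and 3.66 with tremolite asbestos and 2.97, 3.08 and 3.16 with tremolite fragments. Its riebeckite asbestos libraries straddled the untreated ones, and the libraries of both kinds of fragments lay below them. Only tremolite fragments passed, with log2 fold changes of 0.01, -0.16, -0.15 and -0.21 (SE 0.06 each; adjusted p = 0.877, 0.0556, 0.0961 and 0.0212). Calls lost without 1 library were Tyms (untreated library 2 or 3 or tremolite fragment library 1 or 2, adjusted p = 0.0585, 0.061, 0.0737 and 0.0521), Tk1 with riebeckite asbestos (untreated library 2, adjusted p = 0.056) and Tk1 with riebeckite fragments (any untreated library or riebeckite fragment library 2 or 3, adjusted p = 0.112, 0.135, 0.0518, 0.131 and 0.132).

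Chromatin assembly and maintenance methylation split, with 1, 2, 2 and 2 of 4 genes lower and 1, 1, 0 and 1 higher. With riebeckite asbestos the share lower, 25%, was near the 24.3% of all genes tested. The shares of all genes tested that rose were 21, 15.3, 10 and 12.5%. Uhrf1, which reads newly copied, hemimethylated DNA and recruits Dnmt1 to it (chromosome 17, 56303321 to 56323486, plus strand), read 25.3, 26.7 and 24.9 FPKM in untreated libraries 1 to 3, 22.1, 22.4 and 23.5 with riebeckite asbestos, 21.4, 22.1 and 21.2 with riebeckite fragments, 17.7, 18.2 and 17.8 with tremolite asbestos and 19.4, 19.6 and 19.5 with tremolite fragments. Every treated library was below the untreated range, and its log2 fold changes were -0.17, -0.24, -0.49 and -0.38 (SE 0.03 each; adjusted p = 0.00117, 0.000100, 3.61e-07 and 2.77e-06). Dnmt1, the methyltransferase that copies the mark (chromosome 9, 20907209 to 20959888, minus strand), read 31, 30.8 and 31.5 FPKM in untreated libraries 1 to 3, 38.7, 39.3 and 38.6 with riebeckite asbestos, 35.1, 36.9 and 39.4 with riebeckite fragments, 32.2, 33.7 and 30.7 with tremolite asbestos and 34.2, 34.4 and 34.6 with tremolite fragments. Its libraries lay above the untreated range with both riebeckite particles and tremolite fragments and overlapped it with tremolite asbestos. The log2 fold changes of Dnmt1 were 0.31, 0.25, 0.05 and 0.14 (SE 0.04 each; adjusted p = 3.65e-05, 0.000326, 0.43 and 0.0196). The partners changed in opposite directions in 3 of the 4 comparisons. Chaf1a, the large subunit of the chromatin assembly factor, fell with riebeckite fragments (-0.22), tremolite asbestos (-0.38) and tremolite fragments (-0.30), and its partner Chaf1b passed in none (0.08, -0.10, -0.10 and -0.13). The rise of Dnmt1 with tremolite fragments was lost after rescaling to nuclear genes and without untreated library 1 or 2 or tremolite fragment library 2 or 3 (adjusted p = 0.0511, 0.0616, 0.0521 and 0.0549). The fall of Chaf1a with riebeckite fragments was lost without untreated library 2 or 3 (adjusted p = 0.109 and 0.0585) or riebeckite fragment library 1, where it stood at -0.12 (adjusted p = 0.12).

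**Figure D4:**
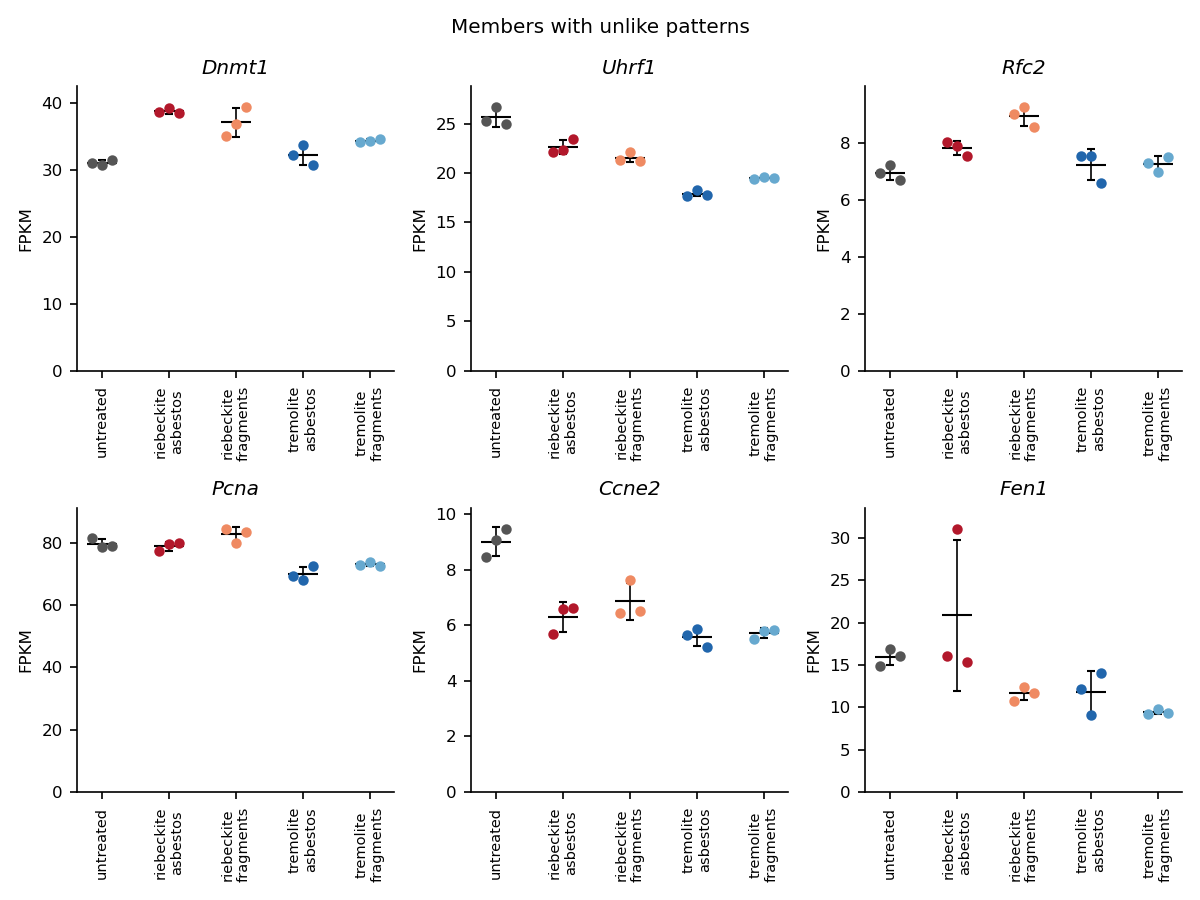
FPKM (vertical axes, from 0) in each library (points) by group, with the mean as a bar and the SD as whiskers (n = 3), for 6 members with unlike patterns. Dnmt1 and Rfc2 are higher with the riebeckite particles, Uhrf1 and Ccne2 are lower in all treated groups, Pcna is lower with both tremolite particles, and Fen1 has 1 high library, riebeckite asbestos 2, at 31.1 FPKM.

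Regulators of S-phase entry had 1, 3, 4 and 4 of 4 genes lower and none higher. With riebeckite asbestos that share, 25%, was near the 24.3% of all genes tested. Ccne2, a cyclin E (chromosome 4, 11191351 to 11204779, plus strand), read 8.47, 9.08 and 9.49 FPKM in untreated libraries 1 to 3, 5.69, 6.59 and 6.63 with riebeckite asbestos, 6.45, 7.64 and 6.53 with riebeckite fragments, 5.66, 5.86 and 5.23 with tremolite asbestos and 5.52, 5.81 and 5.85 with tremolite fragments. The treated libraries were all below the untreated ones, and the log2 fold changes were -0.46, -0.35, -0.60 and -0.57 (SE 0.07 each; adjusted p = 0.000148, 0.00147, 3.64e-05 and 4.21e-05). Its gene overlaps Ints8 on the opposite strand. Ccne1, the other cyclin E, read 8.22, 7.47 and 7.86 FPKM in untreated libraries 1 to 3, 7.02, 7.9 and 6.8 with riebeckite asbestos, 7.52, 5.84 and 6.2 with riebeckite fragments, 6.05, 6.07 and 5.46 with tremolite asbestos and 6.06, 5.77 and 5.96 with tremolite fragments. The riebeckite groups overlapped the untreated libraries and the tremolite groups did not, with log2 fold changes of -0.10, -0.24, -0.37 and -0.35 (SE 0.08 each; adjusted p = 0.293, 0.0254, 0.0035 and 0.00388). E2f1, the activating E2F factor, read 14.3, 15.4 and 15.2 FPKM in untreated libraries 1 to 3, 17, 15.1 and 15.9 with riebeckite asbestos, 13.8, 13.4 and 14.1 with riebeckite fragments, 13.6, 13.5 and 13.2 with tremolite asbestos and 12.8, 13.6 and 13.7 with tremolite fragments. Its riebeckite asbestos libraries reached above the untreated range, the other treated libraries lay below it, and the log2 fold changes were 0.09, -0.11, -0.14 and -0.15 (SE 0.05 each; adjusted p = 0.125, 0.0666, 0.0346 and 0.0224). Slbp, which binds the ends of histone mRNA, fell with riebeckite fragments (-0.20), tremolite asbestos (-0.20) and tremolite fragments (-0.21). The Ccne1 call with riebeckite fragments was lost without untreated library 1 or 3 or riebeckite fragment library 2 or 3 (adjusted p = 0.0826, 0.0623, 0.108 and 0.0816). The E2f1 calls were lost without untreated library 2 or 3 or any tremolite asbestos library (adjusted p = 0.124, 0.10, 0.0639, 0.0661 and 0.0986) and, with tremolite fragments, without untreated library 2 or 3 or tremolite fragment library 1 (adjusted p = 0.0878, 0.0706 and 0.0975).

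Genes around the machinery that are not among the 48 were counted from lists by function. Of 36 other replication genes tested, 18, 17, 14 and 13 fell (50, 47.2, 38.9 and 36.1%) and 2, 1, 1 and 2 rose. Pclaf, which binds the Pcna clamp, fell by 0.54, 0.43, 0.51 and 0.43 on the log2 scale, and Top2a, the topoisomerase that untangles sister DNA, fell by 0.41, 0.26, 0.32 and 0.32. Atad5, which unloads the clamp, fell as well (-0.41, -0.28, -0.36 and -0.30), as did Topbp1, a factor of origin firing and checkpoint signalling (-0.24, -0.27, -0.31 and -0.28). Of 19 other genes of nucleotide metabolism, 14, 14, 13 and 12 fell (73.7, 73.7, 68.4 and 63.2%) and 1, 1, 0 and 0 rose. They included the deoxycytidine kinase Dck (-0.54, -0.52, -0.56 and -0.61), the purine synthesis enzymes Atic (-0.50, -0.40, -0.43 and -0.35) and Impdh2 (-0.31, -0.36, -0.33 and -0.33), and Samhd1, which degrades deoxynucleotides (-0.70, -0.48, -0.18 and -0.37). Of 10 histone chaperones and related genes, 5, 7, 6 and 6 fell (50, 70, 60 and 60%) and none rose, Nasp by 0.25, 0.31, 0.22 and 0.15 on the log2 scale.

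Among control genes of the G1/S step 11, 12, 9 and 10 of 29 were lower (37.9, 41.4, 31 and 34.5%) and 4, 4, 3 and 4 higher. Of all genes tested 21, 15.3, 10 and 12.5% rose, so the rises in this list were near or below the background share. The cyclin D1 gene Ccnd1, which carries growth factor signals into the cycle, fell more than any of the 48, by 1.74, 1.55, 0.79 and 1.27 on the log2 scale. Ccnd2, another cyclin D, fell by 0.22, 0.14, 0.20 and 0.24. Cdkn1c, an inhibitor of cyclin-dependent kinases, rose by 0.48, 0.61, 1.00 and 0.66. Among 13 replication checkpoint genes 4, 3, 3 and 4 fell (30.8, 23.1, 23.1 and 30.8%) and 1, 1, 0 and 0 rose, where 24.3, 23.1, 13.9 and 15% of all genes tested fell, so the share with riebeckite fragments was that of the background. Usp1, a deubiquitinase that acts on the clamp, fell in all 4 comparisons (-0.36, -0.33, -0.21 and -0.20). Of 20 mitosis genes 9, 4, 4 and 3 fell (45, 20, 20 and 15%, at or below the background share with both fragments) and 3, 2, 1 and 2 rose, with list medians of -0.14, -0.04, -0.03 and -0.01. The mitotic kinase Plk1 rose with all particles (0.37, 0.31, 0.23 and 0.26), while the spindle motors Kif11 (-0.38, -0.22, -0.26 and -0.24) and Kif23 (-0.41, -0.21, -0.27 and -0.21) fell.

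Asbestos was then set against cleavage fragments of the same mineral, the comparison of habit. For tremolite 0 of the 48 genes were called lower and 0 higher with limma, and 3 had an unadjusted p under 0.05. Few genes of any kind separated these groups, 0.556% of those tested being lower and 0.386% higher. The log2 differences of the 48 genes lay between -0.19 and 0.34 with a median of -0.01, the lowest adjusted p was 0.171, and 42 of the 48 intervals (95%) lay within 0.3 of 0. Mcm6, for example, differed by -0.02, Rrm2 by -0.01 and Ccne2 by -0.03. Uhrf1 had the lowest adjusted p, with a log2 difference of -0.12, and its 2 groups of libraries did not overlap.

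For riebeckite 6 of the 48 genes were higher with asbestos than with fragments and 0 were lower, and 10 had an unadjusted p under 0.05. Of all genes tested 6.71% were higher and 3.85% lower. The 6 were Mcm5 (log2 difference 0.11, SE 0.03, adjusted p = 0.0388), Pold1 (0.17, SE 0.05, 0.0485), Rpa2 (0.30, SE 0.08, 0.0274), Fen1 (0.72, SE 0.21, 0.0431), Chaf1b (0.18, SE 0.05, 0.0312) and E2f1 (0.20, SE 0.05, 0.0141). For Mcm5, Pold1, Fen1, Chaf1b and E2f1 every asbestos library was above every fragment library. The calls of Mcm5, Pold1, Fen1 and Chaf1b were also lost with TMM. All 6 calls depended on single libraries: the count of genes higher ranged from 0 to 3 when any library of either group was left out, with 1, 2 and 3 without riebeckite asbestos library 1, 2 and 3 and 2, 0 and 2 without riebeckite fragment library 1, 2 and 3. Without riebeckite asbestos library 2, where Fen1 was high, the Fen1 difference was 0.41 (adjusted p = 0.0778).

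The minerals were compared within each habit, and the replication genes were more often higher with riebeckite than with tremolite. Between the asbestos forms 15 of the 48 were higher with riebeckite and 1 lower, where 15.5% of all genes tested were higher and 11% lower. The median log2 difference was 0.11. The 5 with the smallest p were Uhrf1 (0.32, SE 0.03, adjusted p = 2.02e-05), Mcm2 (0.36, SE 0.05, 0.000119), Dnmt1 (0.26, SE 0.04, 0.000443), Pcna (0.17, SE 0.03, 0.00136) and E2f1 (0.23, SE 0.05, 0.00219). For each of these 5 all riebeckite asbestos libraries were above all tremolite asbestos libraries. Mcm3 (0.24), Mcm5 (0.15), Orc1 (0.29), Rrm2 (0.22), Chaf1a (0.30) and Ccne1 (0.26) were among the other 10. The gene that went the other way was Gins4 (-0.20, adjusted p = 0.015).

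Between the fragments 7 of the 48 were higher with riebeckite and 1 lower, where 5.31% of all genes tested were higher and 6.01% lower. The median log2 difference was 0.05. The higher genes were Mcm2 (0.24, SE 0.05, adjusted p = 0.00566), Rfc2 (0.27, SE 0.05, 0.00558), Pcna (0.17, SE 0.03, 0.00288), Rrm2 (0.24, SE 0.05, 0.00775), Orc1 (0.26, SE 0.07, 0.0293), Tk1 (0.21, SE 0.05, 0.0228) and Uhrf1 (0.14, SE 0.03, 0.0204). Gins4 was lower here too (-0.21, adjusted p = 0.023). Mcm4 and Mcm6, which fell with all particles, did not pass in either mineral comparison, with differences of 0.02 and -0.08 for Mcm4 and 0.09 and 0.06 for Mcm6. The 2 mineral comparisons share no library, but both take their SE from the same fit over all 15 libraries.

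Leaving out 1 library ended some of these calls. Between the asbestos forms Mcm3 (0.16, adjusted p = 0.0668), Pold1 (0.13, 0.0919), Lig1 (0.20, 0.0563) and Chaf1b (0.16, 0.0526) were lost without riebeckite asbestos library 1, Lig1 (0.066) and Ccne1 (0.0892) without library 2, and Gins4 (0.0633) without library 3. The same held without tremolite asbestos library 1 for Pold1 (0.0611) and Lig1 (0.0932), without library 2 for Fen1 (0.0865) and without library 3 for Pold1 (0.0741) and Ccne1 (0.0895), and Fen1 stood at 0.41 without riebeckite asbestos library 2. Between the fragments Tk1 and Gins4 were lost without riebeckite fragment library 1 (adjusted p = 0.0923 and 0.0916), Uhrf1 without library 2 (0.0687) and Orc1 without library 3 (0.0822). Each omission of a tremolite fragment library ended 3 of the calls of Gins4, Orc1, Tk1 and Uhrf1 (adjusted p from 0.0534 to 0.12). Rescaling to nuclear genes ended Pold1 and Lig1 between the asbestos forms and Orc1 and Uhrf1 between the fragments. Transcript sums of Pold1 gave -0.61 between the asbestos forms, not past the threshold.

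**Figure D5:**
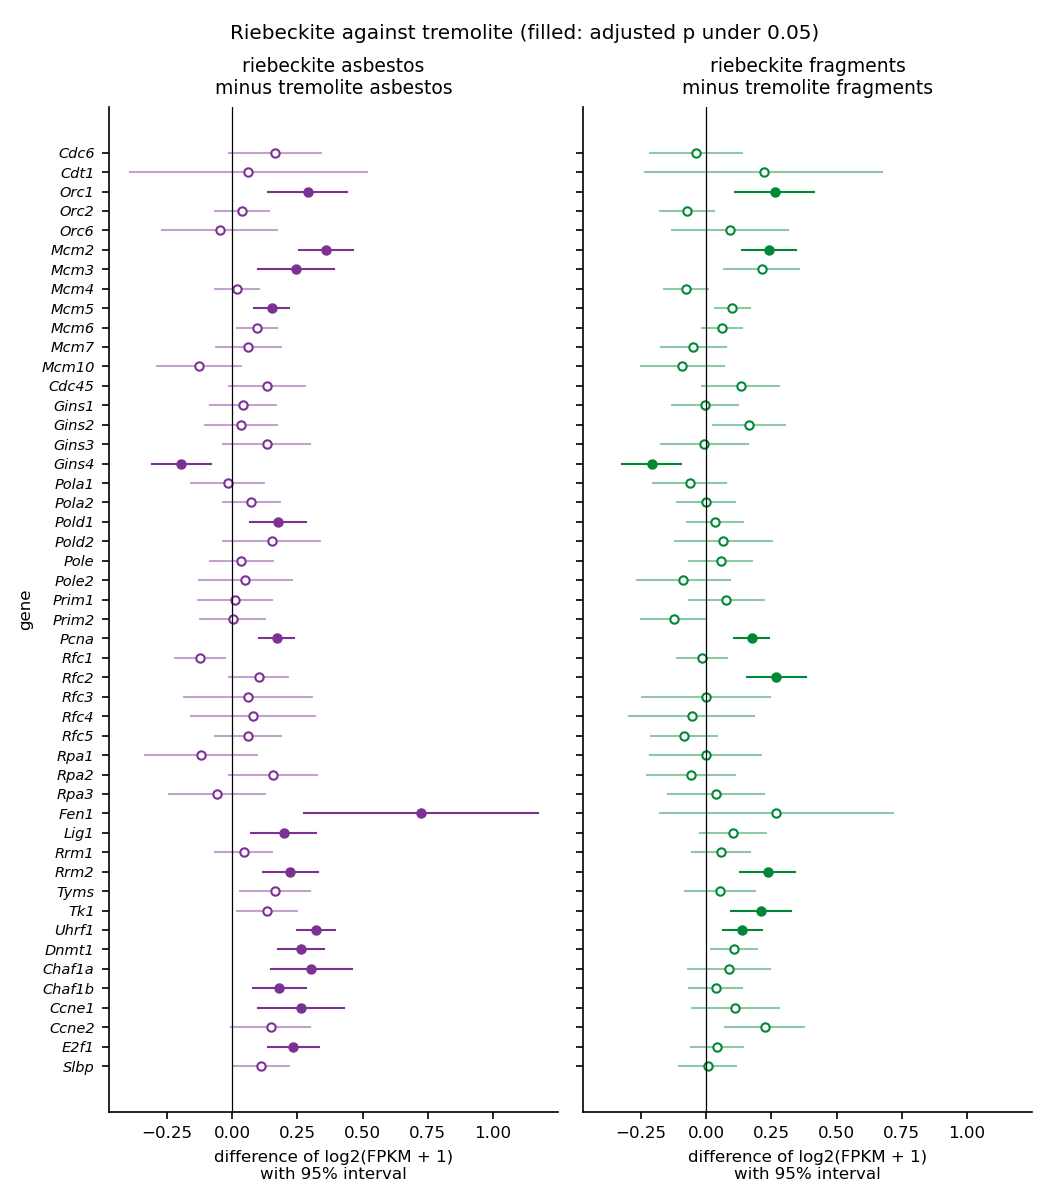
Difference of log2(FPKM + 1) between riebeckite and tremolite (horizontal axes) for each replication gene (rows, ordered by role), between the asbestos forms on the left and the fragments on the right, with 95% intervals from the limma fit. Filled points passed an adjusted p of 0.05. Mcm2, Orc1, Pcna, Rrm2 and Uhrf1 are filled to the right of 0 in both panels, and Gins4 is filled to the left in both.

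Whether the habit effect differed between minerals was tested as an interaction. With limma 0 of the 48 genes were called in either direction and 4 had an unadjusted p under 0.05, where 1.28% of all genes tested were called lower and 2.65% higher. The interaction terms of the 48 genes lay between -0.17 and 0.45 on the log2 scale with a median of 0.07. Uhrf1 came nearest to the threshold (0.18, SE 0.05, adjusted p = 0.0531). The largest term belonged to Fen1 (0.45, SE 0.29, adjusted p = 0.444), with its high library. Replicate spread was larger for the lower genes: the 26 genes under 10 FPKM untreated had a median coefficient of variation of 5.43% within groups, and the 22 at 10 FPKM or more had 3.95%.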

How the data were processed

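RNA of 15 libraries was measured by RNA-seq with oligo(dT) enrichment and dUTP second strands, per the labels' protocols. The submitters' processing notes name cutadapt, HISAT2, StringTie and the GRCm38 build. Their versions and settings, and which annotation was used, were not stated in these sources. Gene and transcript tables were deposited by the authors, with values read here as FPKM from their form. No counts were recovered, so depth and counting error are unknown. Every deposited gene reaches a group mean of at least 0.5003 FPKM.

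Groups came from the labels. The members and gene lists were chosen with earlier results of these data known. Tests covered the 10616 genes that reached 0.5 FPKM in 3 or more libraries. They used log2(FPKM + 1) and limma 3.58.1 under R 4.3.3 (functions lmFit, contrasts.fit, eBayes with a trend) fitted together over the 15 libraries with group as the only term. P-values were 2-sided and adjusted by Benjamini-Hochberg over all genes within a comparison, at 0.05. Library values were named for Mcm2 to Mcm7, Cdc6, Cdt1, Pcna, Rrm2, Tyms, Uhrf1, both cyclin E genes and E2f1, for the 3 largest changes called against untreated cells, and for members called higher. All members called between particles were named up to 10, otherwise at least the 5 with the smallest p, and up to 4 genes of each other list. In GENCODE M21 (GRCm38) 46 of 48 members lay at the deposited position and 26 overlapped another gene. Without strand-specific counting stated in the sources, reads of opposite genes may be mixed. Replicate numbers paired the libraries weakly at most. Same-number correlations ran from -0.06 to 0.17 (median 0.02) and other-number ones from -0.13 to 0.11 (median -0.02).

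Alternatives were TMM and quantile normalization, rescaling to nuclear genes, a pseudocount of 0.1, no filter and genes averaging 5 FPKM or more. Further ones were the replicate block, only the groups compared, no trend, transcript sums and the omission of each library. An omission was read only for comparisons that included the group of the library left out. The code was tested on simulated data. Plots used matplotlib 3.10.9 in Python 3.11.15.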

Additional observations from a re-analysis of the deposited data

How the results depend on the processing

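Counts of replication genes lower against untreated cells stayed within 1.5 times of the reported 24, 29, 33 and 34 under all alternatives. They ran from 19 to 27, 22 to 35, 25 to 34 and 26 to 36 over the other settings. With 1 library of the compared groups left out they ran from 21 to 26, 24 to 29, 28 to 33 and 30 to 34. In every such omission 21, 23, 28 and 29 of these calls were kept. Calls lost with only the groups compared included Rpa1 with riebeckite asbestos and Rpa2 with riebeckite fragments. Cdc45, Prim2, Rfc1 and Slbp with tremolite asbestos were also lost under that setting. Counts higher against untreated cells dropped to 1 with riebeckite asbestos and 0 with tremolite fragments after rescaling to nuclear genes, and ranged from 1 to 2 and from 0 to 1 with 1 library left out. For riebeckite asbestos against fragments 6 genes higher became 2 with TMM, 1 with quantile normalization, 2 with transcript sums and 0 with only the groups compared (0 to 3 with 1 library left out), and 1 gene was lower with TMM, quantile normalization, a mean of at least 5 FPKM and the replicate block. Between the asbestos forms 2 were lower under the same 4 settings, the replicate block included (0 to 2 with 1 library left out), and 9 of the 15 higher calls were kept in every omission. Between the fragments 11 were higher with TMM and 0 lower with only the groups compared, and omissions gave 4 to 7 higher (4 without tremolite fragment library 2) and 0 to 1 lower. The interaction had 1 gene higher at a mean of at least 5 FPKM. Sums of transcripts, of which only part are listed, reversed Cdc6, Lig1 and Pold1. Cdc6 gave 0.0998, 0.087 and 0.0369 with riebeckite asbestos, tremolite asbestos and tremolite fragments. Lig1 gave 0.0914 and 0.157 with riebeckite asbestos and fragments, and Pold1 gave -0.613 between the asbestos forms. Calls against untreated cells lost with these sums included Orc6 and Prim1 in all 4 comparisons. Every Pold1 call against untreated cells and the Lig1 calls with both tremolite particles were lost as well. The tremolite habit median, -0.0068, turned to 0.00606 with TMM, 0.00403 without tremolite asbestos library 3 and 0.00999 without tremolite fragment library 3, over a range from -0.0343 to 0.00999 with 1 library left out. The cause of these shifts was not tested. The replicate block kept 152 of 155 single calls, and 10 of 15 libraries correlated best with those of their own number. Unknown depth limits the genes with low FPKM.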
